A study of Mus musculus with 48 samples.

Results

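Collagens are described here through the 44 genes that encode their chains, among 21974 protein-coding genes and 55471 genes counted in all. Members were chosen by symbol alone, as protein-coding mouse genes named Col, a type number, a and a chain number. They cover 27 collagen types and were placed in classes by the structure their chains form: 11 fibrillar, 6 basement membrane, 6 beaded filament, 9 FACIT, 2 multiplexin, 3 short-chain, 1 anchoring fibril, 4 transmembrane and 2 other genes.

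Collagen chains wind into triple helices in the endoplasmic reticulum after their prolines and lysines have been hydroxylated, are trimmed outside the cell and are then crosslinked into fibrils or networks. In fat, a basement membrane rich in type IV collagen surrounds each adipocyte and each vessel, type VI collagen forms beaded filaments around the adipocytes, and types I, III and V make the fibrils of the stroma. FACIT collagens sit on the surface of fibrils and do not form fibrils themselves, while multiplexins lie between the basement membrane and the stroma.

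The series measured mRNA by sequencing in 48 mouse libraries, 30 of whole fat from the epididymal depot (epididymal white adipose tissue, eWAT) and 18 of cells that the labels call F4/80+, CD11b+ and CD64+ macrophages of that tissue. Txnip, the gene targeted, encodes thioredoxin-interacting protein, an inhibitor of thioredoxin and of glucose uptake, and the title sets the question as how sugar and fat act on inflammation of adipose tissue. Wild type animals and animals labelled as an adipose-specific Txnip knockout (AKO) each received a control or a ketogenic diet. In eWAT there were 7 libraries of each genotype label on control diet and 8 of each on ketogenic diet, and among macrophage-labelled libraries 6 of each on control and 3 of each on ketogenic diet. Animal strain, sex, age, the length of the diets and the promoter behind the deletion are not given here. Whether each library came from an animal of its own is not stated, so p-values measure the spread between libraries, which may be partly technical. The libraries held 17.4 to 59.8 M reads counted in genes.

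The labels were checked first. Txnip itself was higher, not lower, in eWAT labelled knockout on control diet, with 2668 ± 293 CPM against 1655 ± 180 (SD, n = 7 each, log2 fold change 0.69, edgeR adjusted p = 0.000852), and on ketogenic diet with 2344 ± 247 against 1840 ± 294 (n = 8 each, 0.35, adjusted p = 0.0441), so these libraries are called labelled knockout throughout. The count covers the whole gene and the deleted part is not given here, so reads from any part left in place are in it, and this check does not show whether the deletion is present. CPM is the usual read count scaled to library size, here after TMM scaling. Gm11868, chosen after its values were seen, ran from 0.506 to 1.35 CPM in 21 wild type and from 3.48 to 6.66 CPM in 21 knockout-labelled libraries outside the macrophage-labelled ketogenic groups, and 4 of the 6 libraries in those groups fell on the side of the other label (wild type replicates 1 and 2, knockout replicates 2 and 3). The macrophage label also went against its markers. The 10 macrophage markers summed to 380 to 1702 CPM in the macrophage-labelled libraries and to 708 to 1780 CPM in whole eWAT, while the 10 endothelial markers summed to 9256 to 10997 CPM and to 1065 to 1632 CPM. Fcgr1, which encodes CD64, was at 1.03 to 2.08 CPM as group means in macrophage-labelled libraries and at 2.80 to 7.21 CPM in eWAT, and Pecam1, an endothelial adhesion molecule, was at 1729 to 1882 CPM and at 229 to 300 CPM. Values from these libraries are therefore given as values of macrophage-labelled libraries, not of macrophages.

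**Figure D1:**
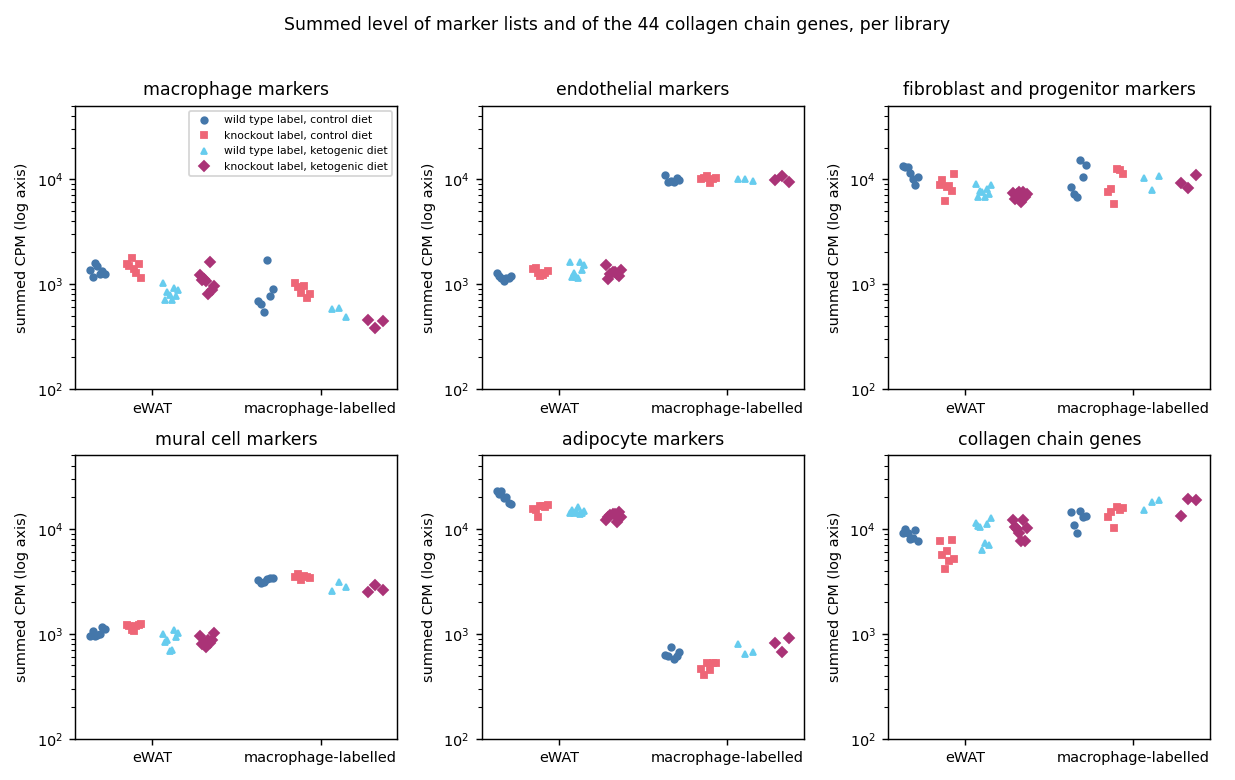
Summed CPM (log axis) of 5 marker lists and of the 44 collagen chain genes in each of the 48 libraries, with 1 point per library, coloured by genotype label and diet. Endothelial markers sit between 9256 and 10997 CPM in the macrophage-labelled libraries, above all eWAT libraries, and macrophage markers do not rise above their level in eWAT.

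Many collagen genes lie next to another one in the genome. On chromosome 8 (GRCm38, GENCODE vM21) Col4a1 runs from 11198423 to 11312826 on the minus strand and Col4a2 from 11312805 to 11449287 on the plus strand, so that both genes start in the same short stretch and are read outwards from it. Col4a4 and Col4a3 on chromosome 1 and Col4a6 and Col4a5 on the X chromosome are placed in the same way. Col6a1 and Col6a2 are neighbours on chromosome 10, Col6a4, Col6a5 and Col6a6 on chromosome 9, and Col3a1 and Col5a2 on chromosome 1. The promoter windows of the divergent Col4a1 and Col4a2 pair, whose genes were called in the same direction in 2 eWAT comparisons, are shown with those of the fibrillar genes Col1a2 and Col3a1 (RefSeq, GRCm38.p6, 250 bases before to 50 after the annotated start, written 5′ to 3′ on the gene's own strand). Capitals mark CCAAT or its complement ATTGG, and TATAAA or its complement TTTATA.
Col4a1, chr8:11312777-11313076, minus strand: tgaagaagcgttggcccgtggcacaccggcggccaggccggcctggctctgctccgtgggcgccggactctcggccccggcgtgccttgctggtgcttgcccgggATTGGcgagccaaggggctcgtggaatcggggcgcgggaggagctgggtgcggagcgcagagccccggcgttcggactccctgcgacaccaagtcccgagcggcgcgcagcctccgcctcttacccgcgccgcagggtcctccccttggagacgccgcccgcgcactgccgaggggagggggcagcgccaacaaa
Col4a2, chr8:11312555-11312854, plus strand: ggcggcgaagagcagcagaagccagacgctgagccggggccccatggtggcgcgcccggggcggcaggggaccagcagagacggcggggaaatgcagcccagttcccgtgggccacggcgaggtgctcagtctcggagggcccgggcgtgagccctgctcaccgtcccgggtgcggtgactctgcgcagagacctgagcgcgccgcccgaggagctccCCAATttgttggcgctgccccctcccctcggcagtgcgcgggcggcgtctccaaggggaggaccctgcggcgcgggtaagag
Col1a2, chr6:4505368-4505667, plus strand: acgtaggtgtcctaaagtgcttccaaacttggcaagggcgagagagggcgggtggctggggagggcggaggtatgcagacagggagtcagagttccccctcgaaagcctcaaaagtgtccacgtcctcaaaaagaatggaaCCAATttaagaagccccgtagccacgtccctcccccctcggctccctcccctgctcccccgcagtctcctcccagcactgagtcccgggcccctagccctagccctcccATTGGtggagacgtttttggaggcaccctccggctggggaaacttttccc
Col3a1, chr1:45311288-45311587, plus strand: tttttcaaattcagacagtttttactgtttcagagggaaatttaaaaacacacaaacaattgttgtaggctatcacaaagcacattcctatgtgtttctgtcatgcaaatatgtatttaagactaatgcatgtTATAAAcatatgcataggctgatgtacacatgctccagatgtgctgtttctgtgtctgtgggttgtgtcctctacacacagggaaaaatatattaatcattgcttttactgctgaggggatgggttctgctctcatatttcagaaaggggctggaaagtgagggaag
The Col4a1 and Col4a2 windows share 78 bases, read on opposite strands. A window was found for 35 of the 44 genes (38 windows). Searched on both strands, CCAAT was present in 13 of the 38 windows and in 37.4% of 32851 mouse promoter windows, and TATAAA in 5 and in 13.6%. GGGCGG, the GC box, was present in 23 of the 38 (60.5%) and in 35.7% of all windows, TGANTCA (the AP-1 motif, N being any base) in 1 and in 7.81%, and CAGACA (an SMAD-binding element) in 9 and in 21.0%. These matches describe letters in the windows and were not tested further.

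Type IV and type III collagen led in whole eWAT. Per kb of exon, in wild type libraries on control diet, Col4a1 stood first at 221 ± 22.8 CPM per kb (SD, n = 7), ahead of Col3a1 at 150 ± 8.50 and Col4a2 at 137 ± 19.1. Col15a1, a multiplexin of the outer basement membrane, and Col6a1 followed at 130 ± 25.5 and 130 ± 24.4 CPM per kb, and these neighbours, like Col3a1 and Col4a2, did not differ beyond their SD. Col5a3 (80.0 ± 20.7), Col6a2 (57.9 ± 12.7), Col1a2 (54.8 ± 7.86), Col1a1 (43.6 ± 8.44) and Col18a1, the source of endostatin (36.6 ± 7.44), made up the rest of the first 10. Col4a1 was first in all 8 groups of libraries on this scale. The length used is that of all annotated exons of a gene, 7464 bases for Col4a1 and 9816 for Col3a1. Their longest transcripts have 6615 and 5564 bases, and Col1a2 has 12426 bases of exon and 5348 in its longest transcript. The order of the genes depends on this choice of length, and levels per transcript length were not computed. The 44 genes together took 0.903 ± 0.0714% of the gene counts in wild type eWAT on control diet, 0.612 ± 0.146% in knockout-labelled eWAT on that diet, and 0.925 ± 0.230% and 0.974 ± 0.198% in wild type and knockout-labelled eWAT on ketogenic diet.

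**Figure D2:**
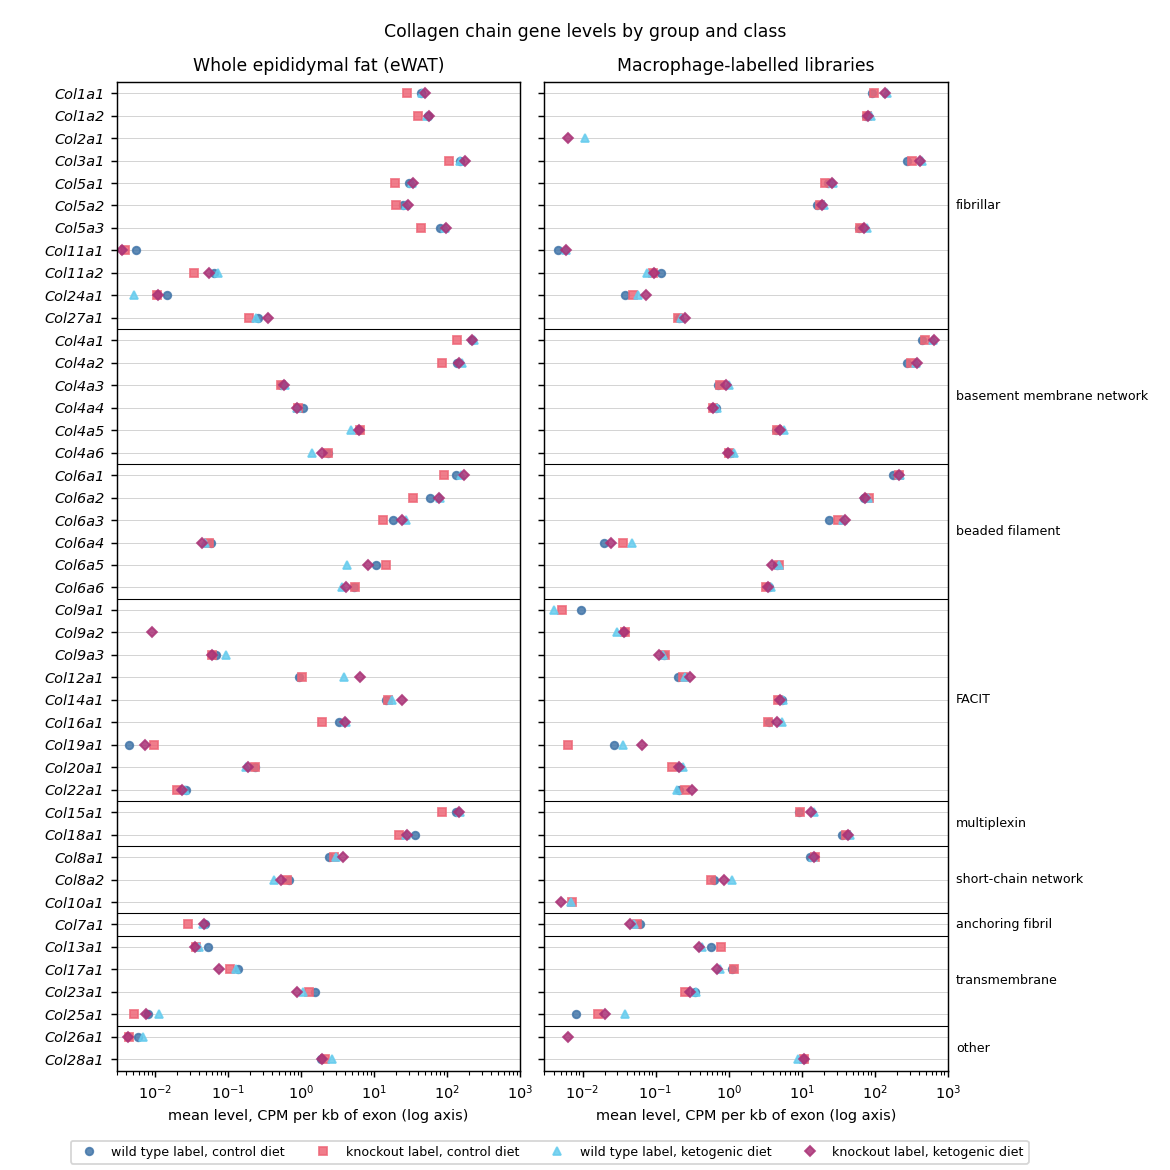
Mean level of each of the 44 genes (rows, by class) in CPM per kb of exon on a log axis, with 1 point per group, in eWAT (left) and in macrophage-labelled libraries (right). Means under 0.003 are not drawn. Col4a1 is furthest to the right of all genes in every group, and Col12a1 shows the widest separation of the diets in eWAT.

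At the other end, 6 genes passed the low-count filter in no comparison: Col2a1, Col9a1, Col10a1 and Col11a1, which are best known from cartilage, with Col9a2 and Col26a1. Their highest count in any library was 16 reads in eWAT and 13 in macrophage-labelled libraries, both for Col11a1. Of the others, 34 were tested in at least 1 eWAT comparison and 38 in at least 1 comparison of macrophage-labelled libraries, and 29 were called in at least 1 comparison, at an edgeR adjusted p under 0.05 over all genes. Those that were tested but called in none of these fits, which have no replicate block, were Col4a4, Col4a5, Col6a4, Col9a3, Col11a2, Col20a1, Col22a1, Col24a1 and Col28a1.

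Chains that share a molecule kept a narrow ratio in some pairs and not in others. The size of each ratio depends on the exon lengths used, but its fold differences between libraries do not. The per-kb ratio of Col4a1 to Col4a2, whose chains form the common type IV molecule together, lay between 1.37 and 1.79 in all 48 libraries. Group means of Col6a1 to Col6a2, partners in type VI collagen, were between 1.96 ± 0.0952 (wild type eWAT, ketogenic diet, n = 8) and 2.88 ± 0.186 (knockout-labelled macrophage-labelled libraries, ketogenic diet, n = 3). Col1a1 to Col1a2 was 0.791 ± 0.0613 (n = 7) in wild type eWAT and 1.20 ± 0.0462 (n = 6) in wild type macrophage-labelled libraries on control diet. Col6a5, which can stand in for the alpha 3 chain of type VI collagen, had a ratio to Col6a3 of 0.203 to 3.62 in the 7 knockout-labelled eWAT libraries on control diet.

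Among genes above 1 CPM in eWAT, Col15a1 had the lowest level in macrophage-labelled libraries relative to eWAT. Its mean on control diet with the wild type label was 828 ± 162 CPM (n = 7) in eWAT and 58.4 ± 13.3 CPM (n = 6) in the macrophage-labelled libraries. Col12a1 (14.4 against 3.11 CPM), Col23a1 (8.99 against 1.96 CPM) and Col14a1 (101 against 37.4 CPM) were lower there too. In the other direction stood Col4a1 (1647 against 3327 CPM), Col3a1 (1469 against 2741 CPM), Col8a1, a short-chain collagen of vessel walls (18.8 against 101 CPM), and Col28a1 (9.20 against 53.5 CPM). The transmembrane collagens Col13a1 (0.246 against 2.66 CPM) and Col17a1 (0.825 against 6.71 CPM) were also higher in the macrophage-labelled set. These are descriptions with no test, because the tissue libraries came from a strand-marking kit and the others from an ultra-low-input kit that marks no strand, each set scaled on its own. Tissue and kit cannot be told apart. Without strand, reads where exons of Col4a1 and Col4a2 overlap, and those where Col15a1 overlaps a gene on the other strand, cannot be assigned to 1 gene in the macrophage-labelled set.

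On control diet, major collagens were lower in eWAT labelled knockout than in wild type eWAT. Of the 33 genes tested, 11 were lower and 0 higher, where 16.0% of all 16746 genes tested were called (11.6% lower, 4.41% higher). They were 5 of 8 fibrillar genes tested (Col1a1, Col1a2, Col3a1, Col5a1 and Col5a3), Col4a1 and Col4a2, Col6a2 and Col6a3, and both multiplexins, Col15a1 and Col18a1. The median log2 fold change of the 33 was −0.37, against 0.01 over all genes tested. In whole tissue, fewer cells of a type and less RNA per cell cannot be told apart.

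Among the fibrillar genes called, Col5a3 had the largest log2 fold change. It encodes a type V chain, which helps to start fibrils. The lowest, median and highest values were 403, 502 and 838 CPM in wild type and 215, 294 and 439 CPM in knockout-labelled libraries (log2 −0.87, SE 0.18, adjusted p = 0.00606). Only the top of the lower group reached into the range of the wild type. Col3a1, the main chain of thin reticular fibrils, ran over 1395, 1431 and 1614 CPM in wild type and over 780, 1068 and 1334 CPM in knockout-labelled libraries, with no overlap (−0.50, SE 0.11, adjusted p = 0.00760). Col1a1, the alpha 1 chain of type I collagen, had 213, 299 and 371 CPM against 130, 154 and 302 CPM (−0.61, SE 0.19, adjusted p = 0.0426), and its groups overlapped. Col1a2 and Col5a1 had log2 fold changes of −0.44 (SE 0.13, adjusted p = 0.0271) and −0.63 (SE 0.17, adjusted p = 0.0245). Col5a2 was at −0.33 (SE 0.13) and did not pass (adjusted p = 0.0866).

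The basement membrane pair Col4a1 and Col4a2 was lower by the same log2 fold change. Col4a1 had 1452, 1605 and 1892 CPM as lowest, median and highest in wild type and 600, 938 and 1440 CPM in knockout-labelled libraries, again without overlap (−0.69, SE 0.17, adjusted p = 0.0128). For Col4a2 the values were 753, 868 and 1101 CPM against 339, 545 and 803 CPM (−0.69, SE 0.17, adjusted p = 0.0155), where the top of the lower group passed the lowest wild type library. The other 4 type IV genes, Col4a3 to Col4a6, were not called. Of the multiplexins, Col18a1 was at −0.75 (SE 0.18, adjusted p = 0.0138) and Col15a1 at −0.62 (SE 0.20, adjusted p = 0.0469), which was the called gene nearest the threshold.

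Of 6 type VI genes tested 2 were called, and the chains were not compared with each other. Col6a2 was lower, with 330, 494 and 626 CPM in wild type against 167, 217 and 436 CPM (−0.76, SE 0.22, adjusted p = 0.0311), and so was Col6a3 (−0.43, SE 0.11, adjusted p = 0.0161). Col6a1 was at −0.50 (SE 0.19) with an adjusted p of 0.0763. The alternative chain Col6a5 was at 0.47 (SE 0.53, adjusted p = 0.578), with knockout-labelled libraries spread from 31.6 to 405 CPM. None of the 5 FACIT genes tested was called, with log2 fold changes from −0.75 to 0.14 and a median of 0.01. Among them Col12a1 was at 0.14 (SE 0.39) and Col14a1 at 0.13 (SE 0.25).

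**Figure D3:**
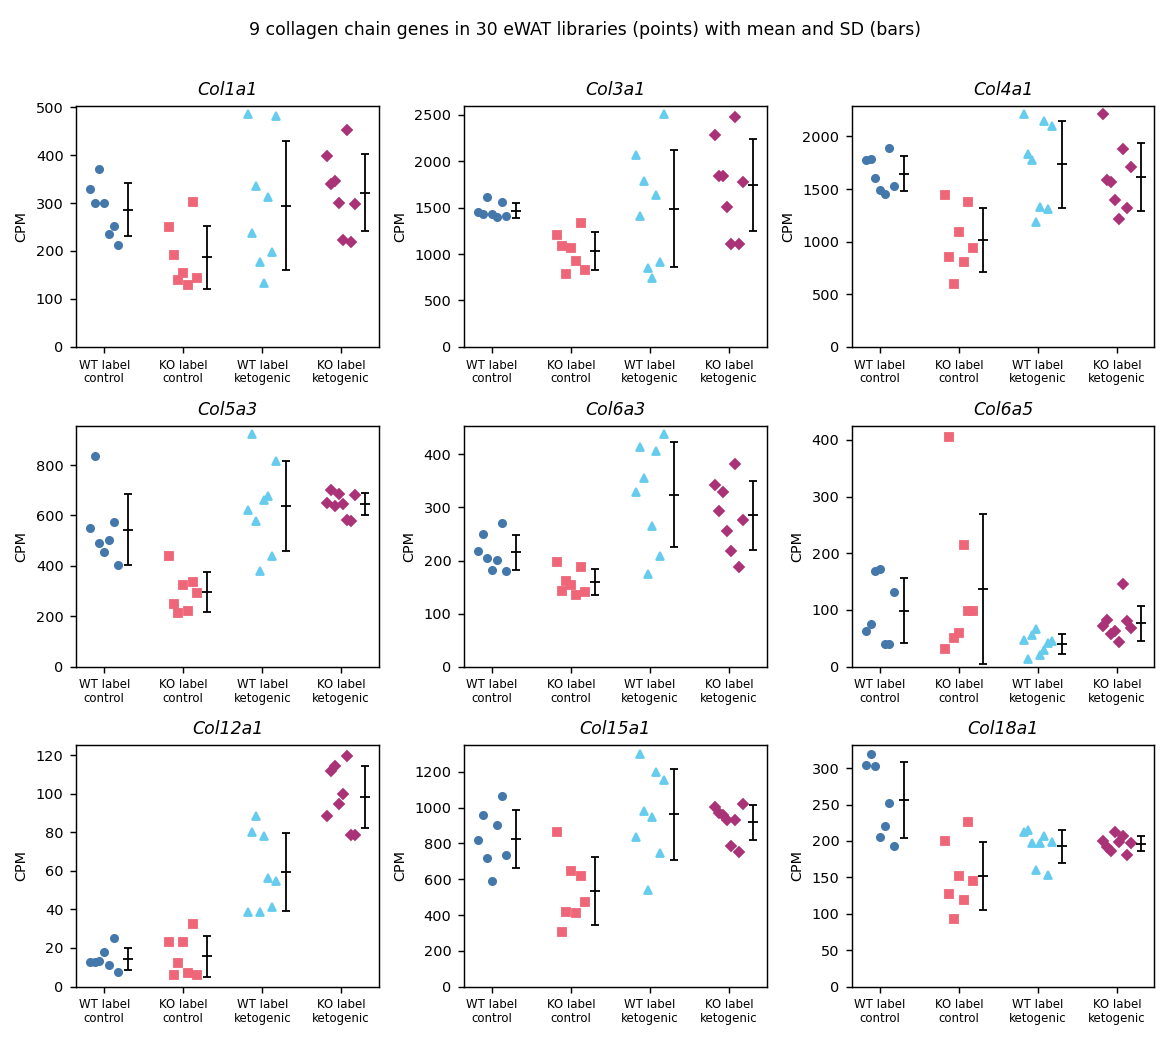
CPM of 9 collagen chain genes in the 30 eWAT libraries, with 1 point per library in its group of genotype label (WT, wild type; KO, knockout) and diet, and the mean and SD beside the points. Col3a1 and Col4a1 separate the labels on control diet, and Col12a1 separates the diets in both labels.

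This comparison moved with GC content, the share of G and C in a transcript. Levels rose with GC by 0.254 ± 0.0832 log2 per 10 percentage points in wild type eWAT on control diet (SD, n = 7, relative to the mean over eWAT libraries) and by −0.0244 ± 0.153 in knockout-labelled eWAT, and the tested collagen genes have a median GC content of 55.7% against 49.3% over all genes with a value. Among the fifth of genes richest in GC, 37.7% were called lower. Of the 33 collagen genes tested 18 lie there, and 9 of these are among the 11 called. With an offset for GC content in each library, Col3a1 (52.5% GC) was called at −0.44 (adjusted p = 0.0119), the other 10 were not, and the median of the 33 was −0.20. With no low-count filter 5 of the 11 were called. The count was 6 without wild type replicate 1 or knockout replicate 5, and 7 without wild type replicate 2 or 3 or knockout replicate 3 or 7. Beside it, 5 of 10 adipocyte markers were lower and 0 higher (summed 12871 to 16827 CPM in knockout-labelled against 17261 to 22785 CPM in wild type libraries), and 4 of 10 endothelial markers were higher. Of 12 fibroblast and progenitor markers 1, Gsn, was lower (−0.47, SE 0.15), which is near the 11.6% of all genes. These 12 summed to 6211 to 11107 CPM in knockout-labelled and to 8808 to 13396 CPM in wild type libraries, and the ranges overlapped. The part of these markers in the result, and that of GC content, was not tested further.

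On ketogenic diet 1 collagen gene was called between the labels in eWAT without a replicate block, and 4 were called with it. The count of 1 was near the share of all genes in the fit without the block. Of 30 tested, Col12a1, a FACIT chain that links fibrils and is known from tissues under tension, was higher in knockout-labelled eWAT, where 3.36% of 15225 genes tested were called (1.48% higher, 1.88% lower). It had 38.6, 55.6 and 88.4 CPM as lowest, median and highest in wild type and 78.5, 97.4 and 119 CPM in knockout-labelled libraries (0.72, SE 0.18, adjusted p = 0.0379). The ranges overlapped only at the top of the wild type group. Genes that were lower on control diet had small log2 fold changes here, with Col3a1 at 0.23 (SE 0.25), Col4a1 at −0.11 (SE 0.15), Col5a3 at 0.02 (SE 0.14) and Col18a1 at 0.03 (SE 0.07), and none of these passed. Same-numbered libraries of the 2 labels deviated together in this comparison, but only just past the limit of 0.1 in the weakest pair (correlations of 0.106 to 0.475 in 8 pairs), and 5 of the 8 wild type libraries were most like their own number. With the replicate number as a block, 4 genes were called higher: Col12a1 (0.77, adjusted p = 0.00687), Col27a1 (0.54, adjusted p = 0.0136), Col8a1 (0.38, adjusted p = 0.0178) and Col4a5 (0.41, adjusted p = 0.00287). The share of all genes called with the block is not given here. Without the block the Col12a1 call ended on leaving out wild type replicate 4, 6, 7 or 8, or replicate 1, 2, 3, 4 or 6 of the knockout label, and also with no low-count filter or with all 4 eWAT groups in 1 fit (adjusted p from 0.0553 to 0.165), and the count was 2 without wild type replicate 3 or knockout replicate 7.

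Between diets, Col12a1 was the collagen gene with the largest change in eWAT of either label. In wild type libraries it had 7.58, 12.8 and 25.2 CPM on control and 38.6, 55.6 and 88.4 CPM on ketogenic diet (2.09, SE 0.26, adjusted p = 6.73e-06). In knockout-labelled libraries it had 5.74, 12.3 and 32.6 CPM on control and 78.5, 97.4 and 119 CPM on ketogenic diet (2.64, SE 0.34, adjusted p = 2.28e-05). The diets did not overlap in either label, and the call held under each of the alternatives run, with log2 fold changes of 1.85 to 2.28 and of 2.48 to 2.94. The libraries of each diet carry title prefixes of their own, with 34.7 to 59.8 M counts on control and 17.4 to 39.0 M on ketogenic diet in eWAT. The diet can therefore not be told apart from the set of libraries with that prefix. This holds for every comparison of diets here, above and below.

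In wild type eWAT 9 of 31 genes tested were called between the diets, 3 higher and 6 lower, where 53.8% of 15569 genes were called (26.8% higher, 27.0% lower). The share was thus lower than that of all genes. Beside Col12a1, the type VI genes Col6a3 (0.63, SE 0.18, adjusted p = 0.00725) and Col6a2 (0.50, SE 0.16, adjusted p = 0.0144) were higher. Their relatives Col6a5, with 39.9, 74.9 and 171 CPM on control and 12.9, 43.6 and 67.1 CPM on ketogenic diet (−1.26, SE 0.38, adjusted p = 0.0119), and Col6a6 (−0.49, SE 0.16, adjusted p = 0.0147) were lower. Col4a6 (−0.69), the short-chain gene Col8a2 (−0.66), the transmembrane gene Col23a1 (−0.51) and Col18a1 (−0.37) were lower as well. The main fibrillar and type IV genes were not called, with Col1a1 at 0.08 (SE 0.25), Col3a1 at 0.06 (SE 0.22) and Col4a1 at 0.12 (SE 0.13). Without wild type ketogenic replicate 4 the call was 7 higher and 6 lower, and over all leave-one-out fits it ran from 3 to 7 higher and from 4 to 7 lower. With the GC offset 11 genes were called, but as 10 higher and 1 lower: Col12a1, Col6a3 and Col6a2 stayed higher and Col6a5 stayed lower, and Col4a1 (0.44), Col4a2 (0.58), Col5a1 (0.49), Col5a3 (0.61), Col6a1 (0.60), Col15a1 (0.56) and Col16a1 (0.71) were called higher. With GC and length it was 9 higher and 2 lower. Shares of all genes called with these offsets are not given here.

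In knockout-labelled eWAT 20 of 33 genes tested were called between the diets, 19 higher and 1 lower, where 39.5% of 16483 genes were called (19.8% higher, 19.7% lower). The median log2 fold change of the 33 was 0.53, against −0.02 over all genes tested. The 19 were 7 of 8 fibrillar genes tested, 3 of 5 FACIT genes (Col12a1, Col14a1 and Col16a1), Col6a1, Col6a2 and Col6a3, Col4a1 and Col4a2, Col15a1 and Col18a1, Col8a1, and Col7a1 of the anchoring fibrils. The exception was Col23a1, a transmembrane collagen, at −0.55 (SE 0.17, adjusted p = 0.0169). This comparison shares its control-diet libraries with the comparison of labels on that diet, so the 2 are not independent.

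Col6a2 had 167, 217 and 436 CPM on control and 515, 626 and 802 CPM on ketogenic diet in knockout-labelled eWAT, without overlap (1.19, SE 0.20, adjusted p = 0.000191). Col5a3 also separated the diets, with 215, 294 and 439 CPM on control and 579, 646 and 701 CPM on ketogenic diet (1.12, SE 0.13, adjusted p = 6.42e-06). Its ketogenic libraries had an SD of 44.7 CPM around a mean of 645 CPM. Col16a1, a FACIT chain, was at 1.03 (SE 0.28, adjusted p = 0.00756), Col6a1 at 0.88 (SE 0.17, adjusted p = 0.000597) and Col6a3 at 0.84 (SE 0.14, adjusted p = 0.000178). Among type I and type III chains, Col1a1 was at 0.78 (SE 0.20), Col3a1 at 0.75 (SE 0.17) and Col1a2 at 0.48 (SE 0.14). The type IV pair rose as a pair, with Col4a1 at 0.66 (SE 0.17) and Col4a2 at 0.78 (SE 0.17). Col14a1 (0.60, adjusted p = 0.0491) and Col18a1 (0.37, adjusted p = 0.0498) lay nearest the threshold, and each lost its call without the low-count filter. With the GC offset 18 of the 20 were called, all higher, with a median over the 33 of 0.56.

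**Figure D4:**
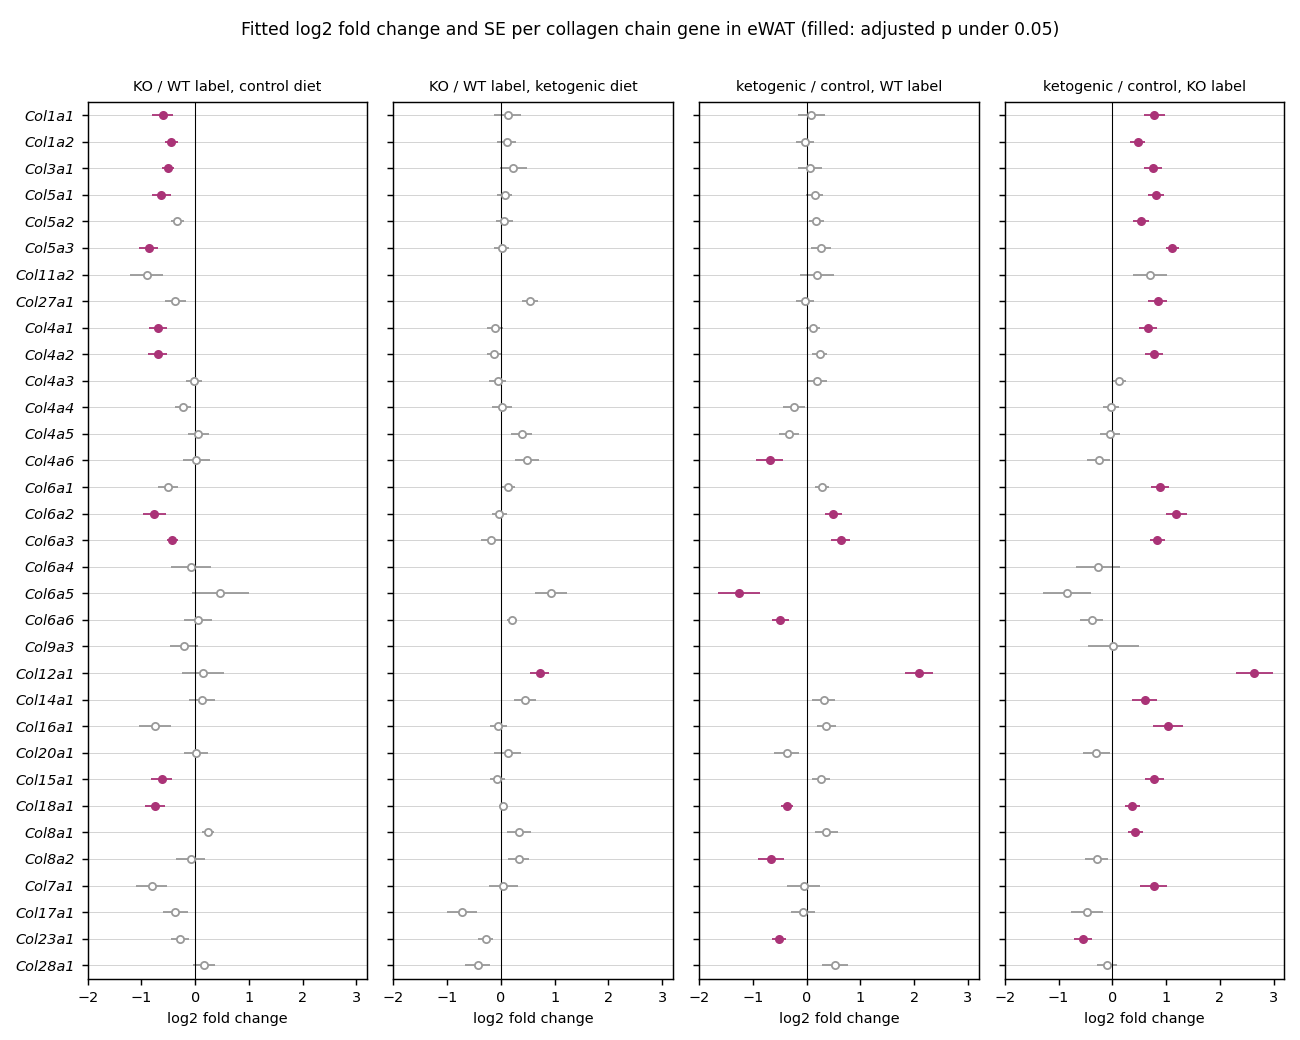
Fitted log2 fold change of each collagen chain gene tested in eWAT (rows) in 4 comparisons (panels), with the SE as a bar and filled points for an edgeR adjusted p under 0.05. Filled points lie left of 0 for the labels on control diet and, but for Col23a1, right of 0 for the diets in knockout-labelled libraries.

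The interaction tests whether the change between diets differed between labels, and its count of collagen genes was near the share of all genes. Of 34 genes tested 3 passed, where 8.31% of 17140 genes did (6.96% higher, 1.35% lower): Col5a3 (0.89, SE 0.23, adjusted p = 0.0146), Col18a1 (0.79, SE 0.19, adjusted p = 0.00968) and Col27a1, a fibrillar collagen best known from cartilage (0.92, SE 0.24, adjusted p = 0.0166). Positive values mean a higher ratio of ketogenic to control diet in the knockout label. Col18a1 had 192, 252 and 320 CPM on control and 153, 198 and 215 CPM on ketogenic diet in wild type (−0.37, SE 0.11, adjusted p = 0.00912). In knockout-labelled libraries it had 93.4, 145 and 226 CPM on control and 180, 197 and 212 CPM on ketogenic diet (0.37, SE 0.14, adjusted p = 0.0498). Col18a1 was thus lower on ketogenic diet in wild type and higher in the knockout label. Col27a1 went from 3.30 ± 0.720 to 3.14 ± 0.719 CPM in wild type and from 2.55 ± 0.728 to 4.55 ± 0.833 CPM in knockout-labelled libraries. With the GC offset edgeR called 0 of the 34 (Col5a3, Col18a1 and Col27a1 then had 0.30, 0.25 and 0.44, adjusted p from 0.275 to 0.528; DESeq2's Wald test without the offset called 6), the Col18a1 difference between diets in wild type was −0.02 with an adjusted p of 0.854, and the median over the 34 went from 0.47 to 0.26. With the replicate number as 1 block over all 4 groups, of which only the ketogenic groups pair by number, 13 genes passed, all higher and the 3 among them. The share of all genes that passed with this block is not given here. The count was 9 without knockout control-diet replicate 1, 8 without knockout control-diet replicate 6 and 5 without wild type ketogenic replicate 8.

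**Figure D5:**
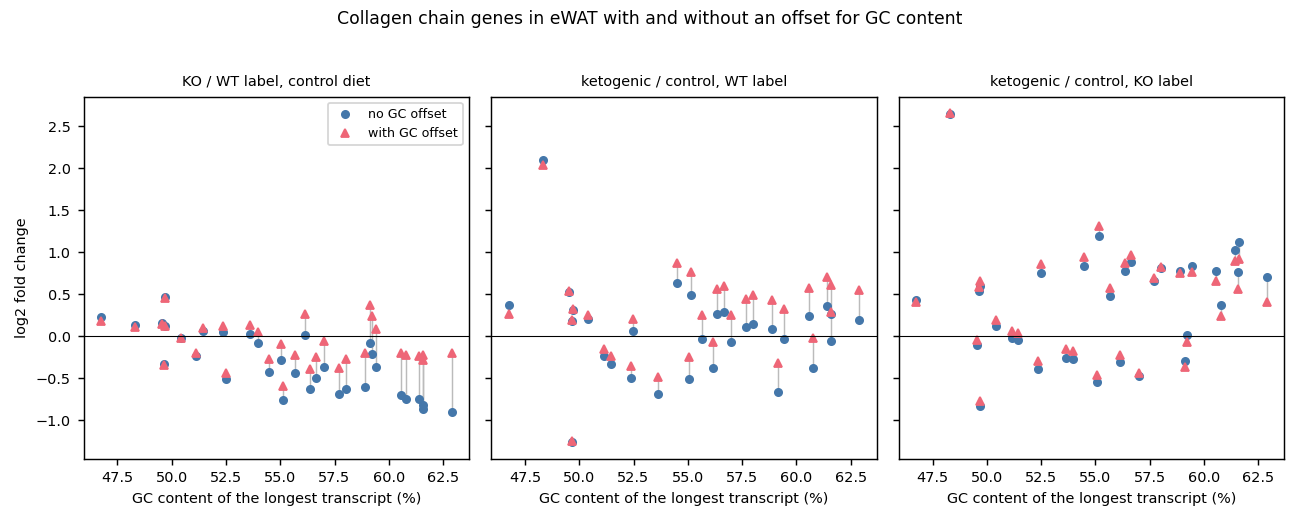
Log2 fold change of collagen chain genes in 3 eWAT comparisons against the GC content of their longest transcript (%), without an offset (circles) and with an offset for GC content in each library (triangles), joined by a line for each gene. The offset moves GC-rich genes towards 0 for the labels on control diet and upwards for the diets in wild type, and moves the diets in knockout-labelled libraries little.

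Genes that make, place and bind collagen were counted in lists, to be read against the 11.6% of all genes that were called lower and the 4.41% called higher between labels on control diet. In the fifth of genes richest in GC those shares were 37.7% and 0.179%, and the list values carry no GC offset. Of 13 genes for procollagen processing and crosslinking, 3 were lower and 0 higher in knockout-labelled eWAT: Loxl1, a crosslinking amine oxidase (−0.78, SE 0.19, adjusted p = 0.0127), and the N-propeptidases Adamts2 (−0.45, SE 0.14) and Adamts14 (−0.53, SE 0.17). Of 17 tested genes for modification and folding 1 was called, the prolyl 3-hydroxylase P3h2 (0.34, SE 0.10). Collagen receptors stood on the other side, with 4 of 8 higher, among them the integrin chain Itga1 (0.38, SE 0.06, adjusted p = 0.00324) and Lair1, an inhibitory collagen receptor of leukocytes (0.58, adjusted p = 0.0273), and 1 lower, the discoidin receptor Ddr1 (−0.84, SE 0.22). Of the 9 laminin, nidogen and perlecan genes, which share the basement membrane with type IV collagen, Nid2 alone was called (−0.53, SE 0.09, adjusted p = 0.00292). The cytokine gene Tgfb1 was the 1 called gene of 13 in the TGF-beta pathway (−0.43, SE 0.11). None of the 10 collagen-binding proteoglycans and fibril partners was called, and of 15 tested genes for degradation and uptake Timp3, a protease inhibitor, was higher (0.37, SE 0.07). The lists with 1 called gene lay near the share of all genes.

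Between the diets the same lists gave other counts, against 19.8% of all genes higher and 19.7% lower in knockout-labelled eWAT and 26.8% higher and 27.0% lower in wild type. In knockout-labelled eWAT 5 of 13 processing and crosslinking genes were higher and 0 lower, including the lysyl oxidases Lox (0.52, SE 0.08), Loxl1 (0.50, SE 0.15) and Loxl2 (0.61, adjusted p = 0.0195), and the perlecan gene Hspg2 was at 1.07 (SE 0.23, adjusted p = 0.00147). In wild type 2 of 13 were higher, Lox (0.73, SE 0.15) and the procollagen protease gene Tll1 (0.62, SE 0.13), and 5 were lower, such as Loxl1 (−0.55, SE 0.19). These counts were not tested against the 26.8% higher and 27.0% lower of all genes. The interaction passed for Loxl1 (1.09, SE 0.26, adjusted p = 0.00831), Adamts2 (0.61, SE 0.18), Bmp1, which encodes the C-propeptidase (0.57, SE 0.17), Tgfb1 (0.58, SE 0.13) and the laminin gene Lamb2 (0.61, SE 0.17). Over all genes 6.96% passed the interaction higher and 1.35% lower, and these values carry no GC offset. Plod2, the lysyl hydroxylase of the telopeptides, was higher on ketogenic diet in both labels (0.88, SE 0.08, in wild type, and 0.68, SE 0.12). In the TGF-beta pathway 4 of the 13 genes were higher in each label, counts that were again not tested against the share of all genes. Among them was the target gene Ccn2, which rose by 1.22 in wild type and 1.32 in knockout-labelled eWAT (SE 0.20 and 0.15). Mmp9, a gelatinase, was lower in both, at −1.59 (adjusted p = 0.00115) and −1.83 (SE 0.24). Aspn and Lum, small proteoglycans of collagen fibrils, were higher in wild type (1.25, SE 0.18, and 0.62, SE 0.16) and in knockout-labelled eWAT (1.02, SE 0.17, and 0.80, SE 0.19).

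Markers of other cell types moved between the diets as well, beside the same shares of all genes (27.0% lower and 26.8% higher in wild type, 19.7% and 19.8% in knockout-labelled eWAT). In wild type eWAT 8 of 10 macrophage markers, 6 of 10 mural cell markers and 5 of 8 B and T cell markers were lower on ketogenic diet, and 5 of 10 endothelial markers were higher. In knockout-labelled eWAT 4 of 10 macrophage and 5 of 10 mural cell markers were lower, and endothelial markers had 0 higher and 1 lower. Of the 12 fibroblast and progenitor markers 4 were lower in wild type, and in knockout-labelled eWAT 3 were lower and 1 was higher, Fbn1, the fibrillin-1 gene (0.86, SE 0.26). The counts of lower markers lay near the share of all genes. The summed level of these 12 markers was 6681 to 9022 CPM in wild type and 6076 to 7542 CPM in knockout-labelled eWAT on ketogenic diet, and 8808 to 13396 CPM and 6211 to 11107 CPM on control diet. The collagen sum ran from 7603 to 9862 CPM and from 4176 to 7862 CPM on control diet, and from 6281 to 12640 CPM and from 7594 to 12042 CPM on ketogenic diet. Adipocyte markers summed to 17261 to 22785 CPM on control and 13873 to 16109 CPM on ketogenic diet in wild type, without overlap. In knockout-labelled eWAT they summed to 12871 to 16827 CPM and to 11651 to 14557 CPM. The part of these cell types in the collagen values was not tested.

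In macrophage-labelled libraries no collagen gene was called between the labels. On control diet 0 of 36 tested passed, with 3 at an unadjusted p under 0.05 (Col6a3, Col8a1 and Col23a1), where 0.0820% of 17067 genes were called (0.0293% higher, 0.0527% lower). On ketogenic diet 0 of 38 tested passed, with 3 at an unadjusted p under 0.05, where 0% of genes were called, and the interaction gave 0 of 38 with 2 at an unadjusted p under 0.05, where again 0% were called. DESeq2's Wald test also gave 0 in all 3. Without the 4 ketogenic libraries that went against their label, 1 library against 1 remains on ketogenic diet, with its spread taken from the control-diet groups, so the 0 calls edgeR then made there and in the interaction say nothing about stability. Col3a1 was at 2741 ± 849 CPM in wild type and 3200 ± 950 CPM in knockout-labelled libraries on control diet (n = 6 each), a gap within the SD of either group.

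Between the diets, 1 of 38 genes was called in macrophage-labelled libraries with the wild type label and 4 of 38 in those with the knockout label, where 3.52% of 17687 genes (1.74% higher, 1.79% lower) and 20.3% of 17693 genes (10.7% higher, 9.57% lower) were called. With the wild type label this was Col25a1, a transmembrane collagen, which had 0.424, 0.321 and 0.710 CPM in the 3 ketogenic libraries and a mean of 0.105 ± 0.0616 CPM on control diet (2.16, SE 0.47, adjusted p = 0.0361). With the knockout label Col17a1, a transmembrane collagen of hemidesmosomes, had 4.38, 4.48 and 3.74 CPM in the ketogenic libraries against 7.12 ± 0.912 CPM on control diet (−0.76, SE 0.13, adjusted p = 0.00223), without overlap. Col13a1 was lower, with 1.62, 2.58 and 1.18 CPM against 3.61 ± 1.11 CPM (SE of the log2 change 0.32, adjusted p = 0.0461), and Col19a1 (3.29, SE 0.58, adjusted p = 0.00264) and Col4a1 (0.40, SE 0.13, adjusted p = 0.0462) were higher. Col19a1 stayed under 1 CPM in every group. Without the 4 ketogenic libraries that went against their label, which leaves 1 ketogenic library in each group assumed to vary like the others, edgeR called 0 collagen genes in either label, with Col25a1 at 2.71 (adjusted p = 0.442) in the wild type label and Col17a1 at −0.70 (adjusted p = 0.0827) and Col4a1 at 0.02 (adjusted p = 0.938) in the knockout label. With all libraries DESeq2's Wald test called 6 and 7 genes. In the wild type label the count was 0 without control-diet replicate 1, 3, 4 or 6 or any 1 ketogenic replicate, and 3 without control-diet replicate 2. In the knockout label it was 2 without control-diet replicate 3, 4, 5 or 6 or ketogenic replicate 3, and 6 without ketogenic replicate 1.

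Because those labels are in doubt, both labels were also pooled, a comparison added after the data had been seen. Then 12 of 38 genes were called between the diets, 10 higher and 2 lower, where 30.4% of 17573 genes were called (14.3% higher, 16.1% lower). Col15a1 (0.60, SE 0.12, adjusted p = 0.00122), Col4a1 (0.44, SE 0.11), Col4a2 (0.34, SE 0.09), Col4a3 (0.40, SE 0.09), Col1a1 (0.61, SE 0.18), Col3a1 (0.50, SE 0.18) and Col6a3 (0.46, adjusted p = 0.0307) were among the higher genes. Col17a1 (−0.65, SE 0.11, adjusted p = 0.000312) and Col13a1 (−0.73, SE 0.24) were the lower ones. Col15a1 had 88.2, 90.1 and 104 CPM in the wild type and 56.3, 98.8 and 100.4 CPM in the knockout-labelled ketogenic libraries, against 59.0 ± 9.97 CPM (SD, n = 12) on control diet. Beside this, 9 of 10 macrophage markers were lower on ketogenic diet (sums of 380 to 588 CPM against 541 to 1702 CPM), and 5 of the 9 laminin, nidogen and perlecan genes were higher, with Lamc1 at 0.53 (SE 0.12) and Lama5 at 0.47 (SE 0.10). The part of these markers in the result was not tested.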

How the data were processed

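The values deposited by the authors are raw counts of reads in each gene. Per the submitters' processing notes, Trim Galore 0.6.0, STAR 2.7.8a and the mm10 build were used, and no annotation release is named there. The stranded count column was used for eWAT and the unstranded one for macrophage-labelled libraries, and rows that name no gene were left out. Positions, exon lengths and GC content came from GENCODE vM21 (GRCm38).

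Each comparison was fitted over all genes in R 4.3.3 with edgeR 4.0.16 (low-count filter, TMM, robust quasi-likelihood test, two-sided, Benjamini-Hochberg, called at an adjusted p under 0.05), on the groups compared, and tested on simulated data. Each SE was derived from the log2 fold change and its F statistic (|log2 fold change| over the root of F). Alternatives were DESeq2 1.42.0, no filter, offsets for GC content or GC content and length (loess, span 0.3), the replicate number as a block, all 4 groups in 1 fit, the unstranded column, and leaving out each library. Replicate numbers paired the libraries, by a correlation of deviations above 0.1 in every pair, only between labels on ketogenic diet (8 of 8 pairs in eWAT, 3 of 3 in macrophage-labelled libraries).

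The members and lists were chosen with earlier results of these data known. Named members were Col1a1, Col1a2, Col3a1, Col5a1, Col5a2, Col4a1, Col4a2, Col6a1, Col6a2, Col6a3, Col12a1, Col14a1, Col15a1 and Col18a1, up to 5 called members per direction with the largest fold change, the genes nearest the threshold, and up to 3 called genes of each other list, of which 1 is not reported here; further members are given to account for all 44, and were chosen after their values were seen.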

Additional observations from a re-analysis of the deposited data

Results flagged for a closer look

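In 156 groups of 4 to 10 libraries, for 26 collagen genes, 12 held a highest or lowest library that stood apart from the others by Dixon's test, which chance alone does in about 1 in 20 groups. In wild type eWAT on control diet, replicate 2 was highest for Col5a3 (838 CPM), Col13a1 (0.956 CPM) and Col25a1 (0.403 CPM). In knockout-labelled eWAT on control diet, replicate 7 was highest for Col13a1 (0.332 CPM) and replicate 6 for Col16a1 (31.1 CPM). On ketogenic diet, wild type replicate 7 was highest for Col17a1 (1.39 CPM), and knockout replicates 6, 2 and 8 were highest for Col6a5 (147 CPM), Col19a1 (0.220 CPM) and Col25a1 (0.437 CPM). In macrophage-labelled libraries on control diet, wild type replicate 3 was highest for Col19a1 (0.654 CPM), knockout replicate 4 highest for Col25a1 (0.465 CPM), and knockout replicate 3 lowest for Col6a3 (259 CPM).

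The change between diets differed between the labels in eWAT for Col5a3 (0.89), Col18a1 (0.79) and Col27a1 (0.92) by the interaction term in edgeR, on the log2 scale. None of the 3 passed with an offset for GC content. The 3 are of 34 collagen genes tested, near the 8.31% of all genes that passed.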

How the results depend on the processing

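Counts of collagen genes called moved by over 1.5 times as follows. Between labels in eWAT on control diet the 11 became 5 with no low-count filter, 1 with the GC offset and 2 with GC and length, and ran from 6 to 15 with 1 library left out. On ketogenic diet the 1 became 3 by DESeq2's Wald test, 0 with no filter, 0 in 1 fit of all 4 groups, and 0 to 2 with 1 library left out. The interaction count of 3 became 6 by the Wald test, 0 with either offset, and 3 to 9 with 1 library left out. In macrophage-labelled libraries between diets the 1 of the wild type label became 6 by the Wald test, 2 with no filter, 2 with the GC offset, 6 in 1 fit of all 4 groups, 0 without the libraries that went against their label, and 0 to 3 with 1 library left out, and the 4 of the knockout label became 7, 2 with no filter, 2 in 1 fit, 0 without those libraries, and 2 to 6. The total counts between diets in eWAT stayed within 1.5 times (7 to 13 and 16 to 20), but not their split in wild type, where 3 higher and 6 lower became 10 and 1 with the GC offset, 9 and 2 with GC and length, 6 and 5 with the replicate block, and 7 and 6 without ketogenic replicate 4, and without a filter the median of all genes there moved to −0.18 and −0.13.

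With the replicate number as a block, the count between labels in eWAT on ketogenic diet was 4, also with the GC offset. For the interaction, where only the ketogenic groups pair, the block gave 13. Where numbers do not pair the libraries, it gave 13 between labels in eWAT on control diet, 14 between diets in the wild type and 3 in the knockout macrophage-labelled libraries, and 20 with both labels together. Of the values of single genes under all alternatives, 3646 kept their side of the threshold, 201 lost and 79 gained a call, and none changed direction while called. Shares of all genes called under these alternatives are not given here, and causes were not tested. The 6 genes with at most 16 reads in any library were at a low level, as libraries held 17.4 to 59.8 M reads counted in genes. For these 6, absent expression and expression too low to test cannot be told apart.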
